A study of Homo sapiens with 6 samples.

Results

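SR proteins and heterogeneous nuclear ribonucleoproteins (hnRNPs) are the RNA-binding proteins that steer the choice of splice sites. The genes described here are those with symbols from SRSF1 to SRSF12 (12 genes), those with symbols that begin with HNRNP (23 genes), and 6 named singly: TRA2A, TRA2B, PTBP1, SF3B1, U2AF1 and U2AF2. Symbols with a hyphen (2) and HNRNP symbols that end in P or in P and digits (124, pseudogenes by their form) were left out. PTBP1, which ends the same way, was kept because it is named singly. In all, 41 of the 39012 genes in the table were taken, and 36 of them passed the filter on low values.

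RNA-seq was done on Jurkat, an established human T cell leukaemia line. The 3 control libraries came from the line labelled EV, and the other 3 from a line with stable overexpression of SCML4, a Polycomb-type protein. Every library, controls included, came from cells given PMA (100 ng/ml) and ionomycin (1 µM) over 6 h, so that no resting cells enter the comparison. The labels name no promoter for SCML4 and do not say whether the lines are clones or whether the libraries of a group come from separate cultures. P-values therefore rest on how much these libraries vary, and that variation may be technical only.

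SR proteins carry RNA recognition motifs and a tail rich in arginine and serine. They bind exonic enhancers and help U1 and U2 small nuclear RNPs to define the exon, while many hnRNPs bind silencers and keep exons out. U2AF and SF3B1 act at the 3 prime end of the intron, where U2AF reads the polypyrimidine tract and the terminal AG, and SF3B1 holds the branch point within the U2 particle. In T cells these factors matter for the switch of CD45 to its short isoform after activation, a step in which hnRNP L and hnRNP LL take part.

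Several hnRNP genes have processed pseudogenes so close in sequence that short reads can be shared between them. The printed sequences show how close gene and copy are for HNRNPK and HNRNPC. Within the printed stretch, HNRNPC and its copy share an unbroken run of over 50 bases, whereas HNRNPK and its copy do not. Also printed are U2AF1 and its copy U2AF1L5, which are not hnRNP genes and are not counted among the pseudogenes here. For each gene the stretch is the first 90 bases of its coding sequence. For each copy it is the 90 bases of its longest transcript that match the gene best without gaps. All run 5 prime to 3 prime, from GENCODE 29 on GRCh38, with capitals at the bases that differ within the pair. The gene HNRNPK is on chromosome 9 and HNRNPKP4 on chromosome 3. HNRNPC is on chromosome 14 and HNRNPCP2 on chromosome 2, and U2AF1 and U2AF1L5 are both on chromosome 21.
HNRNPK: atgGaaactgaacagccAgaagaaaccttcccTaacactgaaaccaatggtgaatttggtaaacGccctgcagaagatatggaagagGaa
HNRNPKP4: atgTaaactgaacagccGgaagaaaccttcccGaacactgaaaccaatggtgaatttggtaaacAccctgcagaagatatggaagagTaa
HNRNPC: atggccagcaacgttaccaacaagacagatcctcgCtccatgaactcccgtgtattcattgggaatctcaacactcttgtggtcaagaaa
HNRNPCP2: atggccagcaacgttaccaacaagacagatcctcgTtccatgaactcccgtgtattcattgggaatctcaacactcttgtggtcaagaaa
U2AF1 and U2AF1L5: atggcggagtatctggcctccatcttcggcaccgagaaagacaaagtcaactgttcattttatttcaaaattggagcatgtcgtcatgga
HNRNPK and HNRNPKP4 differed at 5 of the 90 bases, HNRNPC and HNRNPCP2 at 1, and U2AF1 and U2AF1L5 at 0. These 3 pairs were chosen for print after their values had been seen. HNRNPA1 and HNRNPA1P48, which are not printed, also differed at 0 of the 90 bases, and their aligned parts were 99.4% identical. In 7 further pairs this window had 13 or more differences when compared with no gaps, although the aligned parts of gene and copy were 92.1% to 99.6% identical.

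The 6 libraries held between 8953671 and 10336597 reads, which were recovered from the deposited FPKM values, and 99.63% to 99.65% of them fell on listed genes. A level in CPM is the reads of a gene for every 1000000 in that library. The overexpressed gene matched the labels, with 0.727, 0.223 and 0.103 CPM of SCML4 in EV and 62.9, 63.6 and 56.5 CPM in the SCML4 group. The cell type label carries the word ouabain although no such treatment is listed, so the cells were checked by markers. All 11 T cell markers, among them CD3E and LCK, had reads in every library, with summed levels of 2937 to 3207 CPM in EV and 3235 to 3312 CPM in SCML4. Of 20 markers of B cells, monocytes, fibroblasts and epithelium, 10 were at 0 in all libraries, among them PAX5, LYZ, DCN and EPCAM, and CD79A was the highest at 21.5 to 33.3 CPM. EV replicate 1 was unlike the remaining 5 libraries. It lay at -38.6 on the first principal component, which held 26.5% of the variance, and the others lay between 0.35 and 11.6. Its deviation from the mean of the 6 libraries had a Spearman correlation of -0.52 with the GC content of genes, against 0.045 to 0.3 in the others. Differences that it moved by more than 1.5 times are given with and without it, apart from sums of a gene and its pseudogenes.

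No SR protein, hnRNP or 3 prime splice site gene passed the test between EV and SCML4. With limma-trend on log2(FPKM + 1) and Benjamini-Hochberg adjustment over 15357 genes, 0 of 36 members were called at an adjusted p under 0.05, beside 0.0% of all genes. The smallest adjusted p of a member in limma-trend was 0.905. Again 0 of 36 members had an unadjusted p under 0.05 in that fit, beside 5.09% of all genes (781). SCML4 itself (limma-trend adjusted p = 0.0619) missed the threshold on this scale, and passed it in limma-voom on the recovered reads (adjusted p = 1.51e-06).

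On the recovered reads, 0 members were called as well, beside 0.00706% of all genes in limma-trend and in limma-voom, 0.0847% in limma-voom with library weights and 0.0225% after correction for GC content. At an unadjusted p under 0.05, those fits had 1 member beside 5.27% of all genes, 2 beside 5.3%, 2 beside 8.35% and 3 beside 5.89%. Over all 17 alternative fits, the members that reached this level at least once were HNRNPLL, SRSF1, HNRNPH1 and HNRNPD. The share of all genes that did so at least once was not counted. In single alternative fits, 3.91% to 8.35% of all genes reached it. In bulk RNA, a smaller share of cells with a transcript and less of it per cell cannot be told apart.

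The size of difference that these libraries leave room for was small for most members. The 95% intervals of the log2 differences had a median half-width of 0.18, from 0.13 to 0.44. No interval reached below -0.44, and none of the members above a mean of 10 FPKM reached over 0.41. Estimated differences ran from -0.20 for SRSF1 to 0.20 for HNRNPLL. Of the 36 members, 22 had a negative difference (61.1%), beside 48.3% of all genes, and their median was -0.046 beside 0.0058 for all genes. Without EV replicate 1 the median of the members was -0.016.

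**Figure D1:**
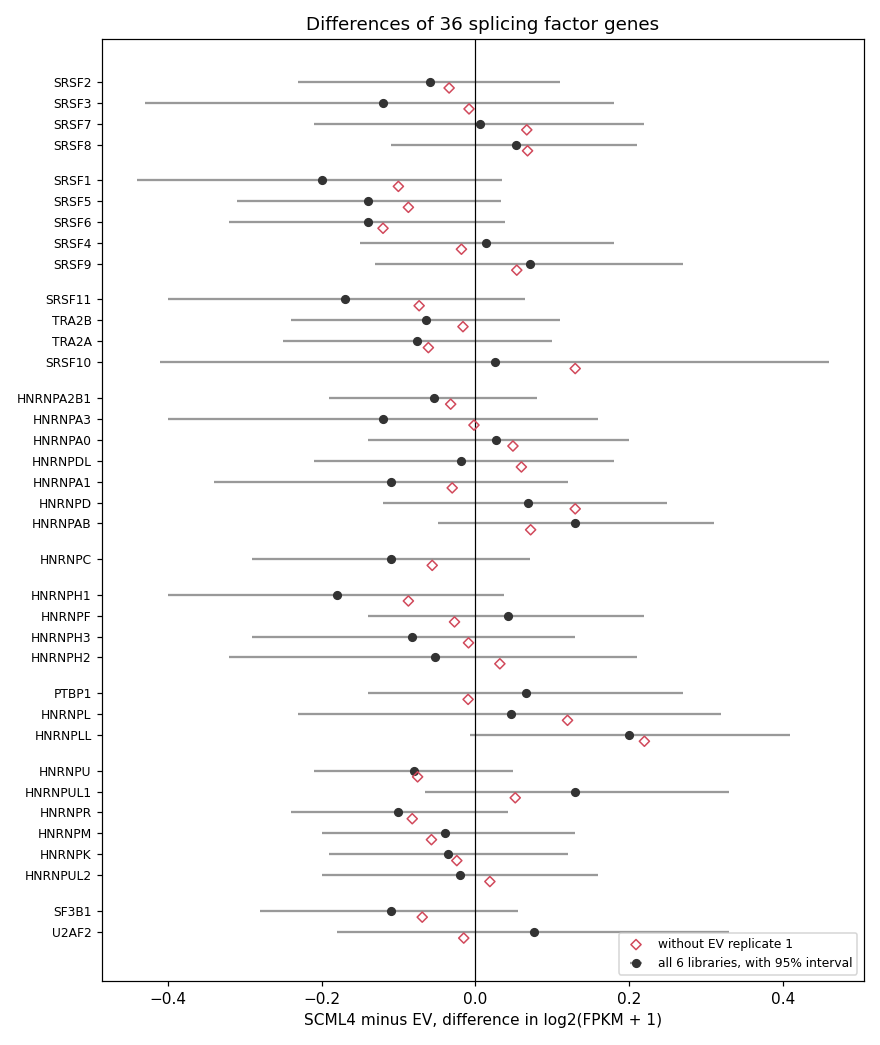
The difference SCML4 minus EV in log2(FPKM + 1) is plotted for 36 genes, in blocks by family. Black points with bars are the values over 6 libraries with 95% intervals, and open diamonds are the values without EV replicate 1. Every interval crosses 0, and 26 of the 36 diamonds lie nearer to 0 than the point above them, a count that was not made for all genes.

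In 9 of the 36 members (25.0%) the CPM values of the 2 groups did not overlap, beside 11.3% of all genes. In 7 the SCML4 libraries were all lower: SRSF1, SRSF5, SRSF6, TRA2A, HNRNPH1, HNRNPU and SF3B1. That is 19.4% of members, beside 5.27% of all genes. In HNRNPLL and HNRNPUL1 the SCML4 libraries were all higher, beside 6.02% of all genes. After correction of recovered reads for GC content, 3 members were all lower (HNRNPH1, SF3B1 and SRSF1), which is 8.33% beside 5.82% of all genes. Another 4 were all higher (HNRNPD, HNRNPLL, HNRNPUL1 and SRSF8), beside 744 of 12761 genes. Both counts together then made 19.4% of members, beside 11.7% of all genes. Without EV replicate 1, which leaves 2 libraries against 3, the groups were apart in 12 members (33.3%), beside 21.6% of all genes. The SCML4 libraries were lower in 8 (22.2% of members, beside 10.0% of all genes) and higher in 4 (beside 1781 of 15357 genes). How far GC content and that library set these counts was not tested beyond this.

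The SR proteins with 1 RNA recognition motif are SRSF2, SRSF3, SRSF7 and SRSF8. SRSF2, which binds exonic enhancers and reads both C-rich and G-rich motifs, had 657, 645 and 603 CPM in EV and 608, 646 and 574 CPM in SCML4. These values overlapped, and the log2 difference was -0.059 (SE 0.070), or -0.034 without EV replicate 1. SRSF3, the smallest of the classical SR proteins, had 543, 419 and 431 CPM in EV and 433, 459 and 379 CPM in SCML4. EV replicate 1 was the highest of the 6, and the log2 difference of -0.12 (SE 0.13) became -0.0081 without it. SRSF7 and SRSF8 had differences of 0.0061 and 0.053 (0.067 and 0.068 without that library), with means over the 6 libraries of 140 and 83.5 CPM. The 4 genes had a median difference of -0.027, which turned to 0.029 without it.

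The SR proteins with 2 RNA recognition motifs are SRSF1, SRSF4, SRSF5, SRSF6 and SRSF9, and SRSF1 had the largest negative difference of all members. SRSF1, the founding member, which promotes the use of proximal 5 prime splice sites, had 463, 384 and 365 CPM in EV and 347, 354 and 344 CPM in SCML4. Each SCML4 library was below each EV library, and the spread lay in EV, where the mean was 404 ± 52.1 CPM (SD, n = 3) against 348 ± 4.90 CPM (SD, n = 3) in SCML4. The log2 difference was -0.20 (SE 0.10, 95% interval -0.44 to 0.035) in limma-trend, where the unadjusted p was 0.0824 and the adjusted 0.905. Without EV replicate 1 it was -0.10, and the remaining EV values of 384 and 365 CPM still lay above the SCML4 values. SRSF1 reached an unadjusted p under 0.05 in 5 of the alternative fits, a count that was not made for all genes. Of its 50-base stretches, 54.5% also occur in AC015813.2, an overlapping gene in GENCODE 29.

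SRSF5, whose transcript is known to respond quickly to growth signals, had 406, 377 and 353 CPM in EV and 335, 344 and 351 CPM in SCML4. The groups were apart by a narrow margin, from 353 to 351 CPM, with a log2 difference of -0.14 (SE 0.072). SRSF6 had 316, 314 and 297 CPM in EV and 287, 293 and 262 CPM in SCML4. Its difference of -0.14 (SE 0.074) was -0.12 without EV replicate 1, so that this gene depended on that library less than SRSF1 or SRSF5, which was then at -0.087. SRSF4 and SRSF9 had differences of 0.014 and 0.071 (-0.018 and 0.054 without it). Across the 5 genes the median was -0.14, and it was -0.087 without EV replicate 1.

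The SR-like proteins bind RNA and carry arginine and serine repeats but differ from the classical SR proteins in how they act. SRSF11, the most abundant of them by CPM, had 563, 477 and 449 CPM in EV and 428, 459 and 432 CPM in SCML4. The groups overlapped, and the log2 difference of -0.17 (SE 0.10) was -0.073 without EV replicate 1. TRA2B, an activator that binds GAA-rich enhancers, had 424, 381 and 385 CPM in EV and 384, 391 and 363 CPM in SCML4, a log2 difference of -0.064 (SE 0.073) that was -0.016 without EV replicate 1.

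TRA2A, its paralog, had 73.6, 71.3 and 71.2 CPM in EV and 69.5, 66.2 and 68.4 CPM in SCML4. The SCML4 libraries were all lower, by a log2 difference of -0.076 (SE 0.073). SRSF10, a protein that represses splicing when it is dephosphorylated, was low at 2.89 to 6.13 CPM in EV and 3.53 to 6.00 CPM in SCML4. SRSF12 had 2, 0 and 1 reads in EV and 0 in each SCML4 library and was not tested, where a count of 0 allows up to 0.290 to 0.335 CPM by library (counting error only).

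Among hnRNPs of the A, B and D type, which bind UAG-like and AU-rich motifs, HNRNPA2B1 was the most abundant by CPM. It had 1613, 1562 and 1518 CPM in EV and 1494, 1533 and 1491 CPM in SCML4. The ranges overlapped, and the log2 difference was -0.054 (SE 0.056), or -0.032 without EV replicate 1. HNRNPAB had 199, 227 and 223 CPM in EV and 244, 241 and 224 CPM in SCML4. EV replicate 1 was the lowest of the 6 here, and the difference of 0.13 (SE 0.074, unadjusted p = 0.125 in limma-trend) was 0.072 without it.

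HNRNPA1 and HNRNPA3, both repressors of exon inclusion, had differences of -0.11 and -0.12, which became -0.030 and -0.0017 without EV replicate 1. HNRNPA3 reached 878 CPM in that library and 643 to 722 CPM in the other 5. HNRNPD (AUF1), known for its role in the decay of AU-rich transcripts, was at 0.069 and at 0.13 without EV replicate 1. Its unadjusted p was under 0.05 in 1 alternative, the GC correction, where that held for 5.89% of all genes. HNRNPA0 and HNRNPDL were at 0.027 and -0.018 (0.049 and 0.060 without that library). HNRNPA1L2, an intronless copy, was listed at 0 in all libraries. The median of the 7 tested genes was -0.018, which turned to 0.049 without EV replicate 1.

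HNRNPC, which coats nascent transcripts and binds runs of uridine, had 377, 327 and 349 CPM in EV and 338, 330 and 307 CPM in SCML4. The ranges overlapped, with a log2 difference of -0.11 (SE 0.075) that was -0.056 without EV replicate 1. Of its copies HNRNPCL1 had at most 2 reads in a library and HNRNPCL2 was listed at 0. In the F/H group, which binds runs of guanine, HNRNPH1 led with 1122, 946 and 890 CPM in EV and 846, 872 and 875 CPM in SCML4. Each SCML4 library was below each EV library, the nearest pair being 875 and 890 CPM. The log2 difference was -0.18 (SE 0.092, 95% interval -0.40 to 0.038), with an unadjusted p of 0.0906 in limma-trend, and it was -0.087 without EV replicate 1. HNRNPH2, HNRNPH3 and HNRNPF had differences of -0.052, -0.082 and 0.043. They were 0.032, -0.0088 and -0.027 without EV replicate 1, so that the first and last changed sign.

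The L and PTB group held the member with the smallest p. HNRNPLL, a regulator of CD45 exon choice in T cells, had 54.5, 53.3 and 51.2 CPM in EV and 54.8, 63.2 and 66.0 CPM in SCML4. SCML4 replicate 1 was barely above the highest EV library, and the other SCML4 libraries were higher still. The log2 difference was 0.20 (SE 0.087, 95% interval -0.0069 to 0.41) in limma-trend, where the unadjusted p was 0.0559 and the adjusted 0.905. It was 0.22 without EV replicate 1 and 0.26 after the GC correction, so that it did not shrink in either. HNRNPLL reached an unadjusted p under 0.05 in 5 of the alternative fits, a count that was not made for all genes. Per gene totals do not show which exons of any target were used.

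PTBP1, a repressor that binds polypyrimidine tracts, had 483, 585 and 547 CPM in EV and 564, 565 and 556 CPM in SCML4. EV replicate 1 was the lowest, and the difference of 0.066 (SE 0.085) was -0.0093 without it and -0.022 after the GC correction. HNRNPL, the close relative of HNRNPLL, was at 0.047 (SE 0.11) and at 0.12 without EV replicate 1. The 3 genes had a median of 0.066, or 0.12 without it.

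In the last hnRNP group HNRNPU, a nuclear matrix protein also called SAF-A, was the most abundant by CPM. It had 1096, 1080 and 1088 CPM in EV and 1044, 1004 and 1040 CPM in SCML4. All SCML4 libraries were lower, and both groups were tight, with 1088 ± 7.68 CPM (SD, n = 3) in EV and 1029 ± 21.8 CPM (SD, n = 3) in SCML4. The log2 difference was -0.080 (SE 0.053) and stayed at -0.075 without EV replicate 1, but it was -0.020 after the GC correction.

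HNRNPUL1 had 413, 487 and 491 CPM in EV and 499, 504 and 518 CPM in SCML4. The SCML4 libraries were all higher, and the difference of 0.13 (SE 0.082) was 0.052 without EV replicate 1. HNRNPR had 377, 377 and 355 CPM in EV and 338, 343 and 355 CPM in SCML4, which overlapped at a log2 difference of -0.10 (SE 0.058). HNRNPK, HNRNPM and HNRNPUL2 were at -0.035, -0.039 and -0.020, and HNRNPUL2 was at 0.019 without EV replicate 1. The median of the 6 genes was -0.037.

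At the 3 prime splice site, SF3B1 had 651, 612 and 583 CPM in EV and 552, 580 and 575 CPM in SCML4. The SCML4 libraries were all lower, with a log2 difference of -0.11 (SE 0.069) that was -0.069 without EV replicate 1 and -0.071 after the GC correction. U2AF2, the large U2AF subunit, which binds the polypyrimidine tract, had 170, 194 and 221 CPM in EV and 214, 204 and 197 CPM in SCML4. The groups overlapped, and the difference of 0.076 (SE 0.11) was -0.015 without EV replicate 1.

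U2AF1, the small subunit that reads the AG of the 3 prime splice site, was listed at 0 in all 6 libraries. Of its 50-base stretches in GENCODE 29, 93.3% also occur in U2AF1L5, which is not analysed here. This comparison was made on GRCh38, whereas the submitters name the build hg19. Whether the reference they used holds this copy was not checked. The aligned coding bases of both genes, 82.1% of the U2AF1 coding sequence, were 100% identical, as in the printed stretch. The part of this copy in the 0 was not tested, and the value is not read as absence of the transcript.

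**Figure D2:**
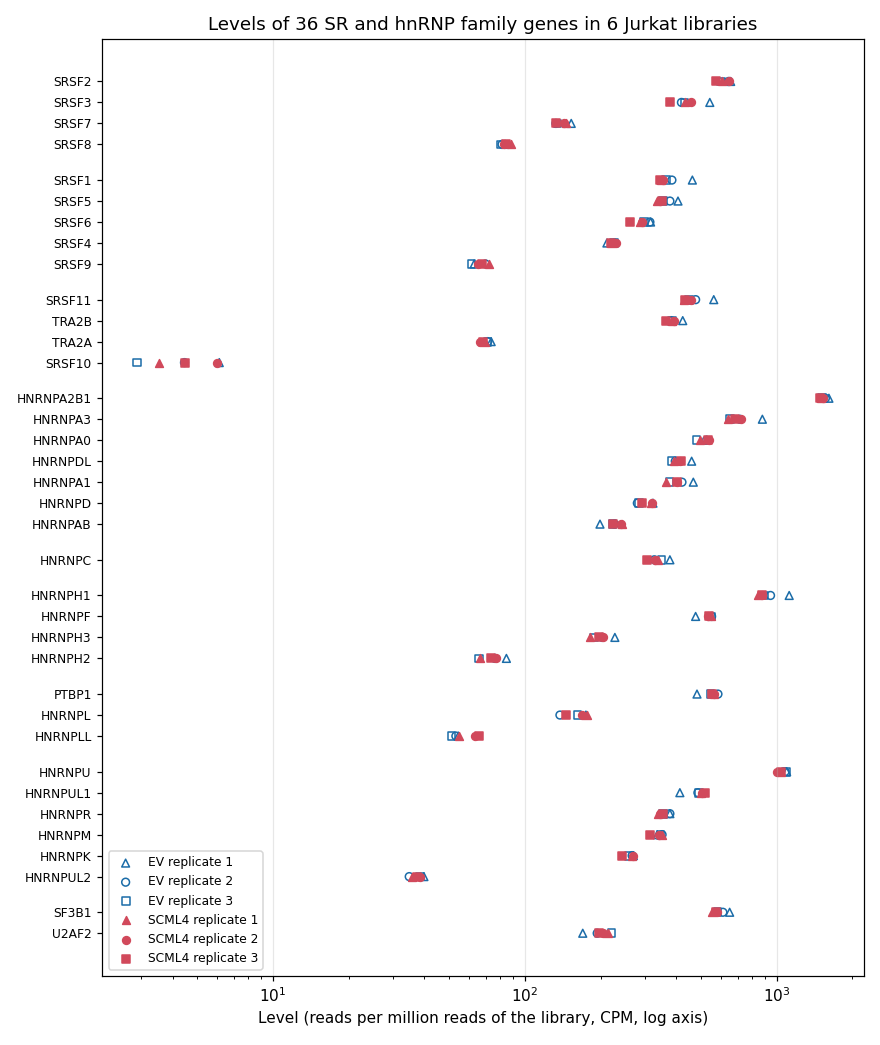
Levels of the 36 tested genes are shown on a log axis in CPM, with open blue marks for EV and filled red marks for SCML4, and a shape for each replicate number. The open triangle of EV replicate 1 lies at the right edge of most genes and at the left edge of HNRNPF, PTBP1, HNRNPUL1, HNRNPAB, SRSF4 and U2AF2.

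Levels between genes were compared per kilobase of exonic length in GENCODE 29, since the lengths behind the deposited FPKM are not those of the named genes. The exonic length counts all annotated transcripts, so that genes with long rare transcripts, such as HNRNPU with 22512 bases, are understated. On this scale SRSF2 was highest at 206 CPM per kb, followed by HNRNPA2B1 at 166 and HNRNPF at 164. SRSF2 was apart from the next gene in all 6 libraries, whereas HNRNPA2B1 and HNRNPF overlapped. Then came HNRNPA3 (119), SRSF1 (113), HNRNPAB (106) and HNRNPH1 (97.6), each of which overlapped its neighbour in that order. From PTBP1 at 79.9 down to TRA2B at 33.0 CPM per kb, 21 genes followed with no gap between neighbours, and SRSF4 at 25.1 led 5 more down to SRSF9 at 17.8. HNRNPLL at 9.65, HNRNPUL2 at 6.91 and SRSF10 at 0.446 CPM per kb closed the order, each apart from the one before. Together the 41 genes took 1.36% to 1.48% of the reads in EV and 1.34% to 1.38% in SCML4.

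EV replicate 1 was the highest of the 6 libraries in 23 of 36 members (63.9%), beside 27.1% of all genes. Its median deviation from the mean of the 6 libraries was 0.091 on log2(CPM + 1), against -0.029 to 0.025 in the others, and over all genes it was 0.0026. The members have transcripts of low GC content: their median GC content was 41.2%, against 48.1% for all tested genes, and 29 of 36 lay below the latter. Across the 36 members the deviation of EV replicate 1 had a Pearson r of -0.67 and a Spearman rho of -0.49 with GC content. These points share a library, and the correlation is a description. The difference SCML4 minus EV had an r of 0.51 and a rho of 0.51 with GC content. Without EV replicate 1 these were 0.13 and 0.27, and after the GC correction 0.05 and 0.19.

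**Figure D3:**
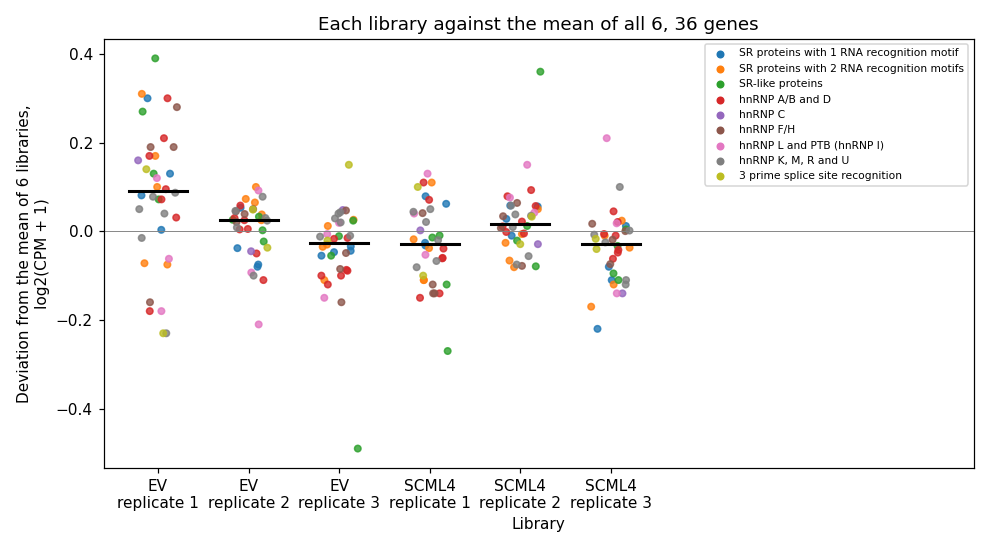
Each point is the deviation of a gene from its mean over 6 libraries, in log2(CPM + 1), coloured by family, with a black bar at the median of the library. The median of EV replicate 1 is 0.091, and the other 5 medians lie between -0.029 and 0.025.

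**Figure D4:**
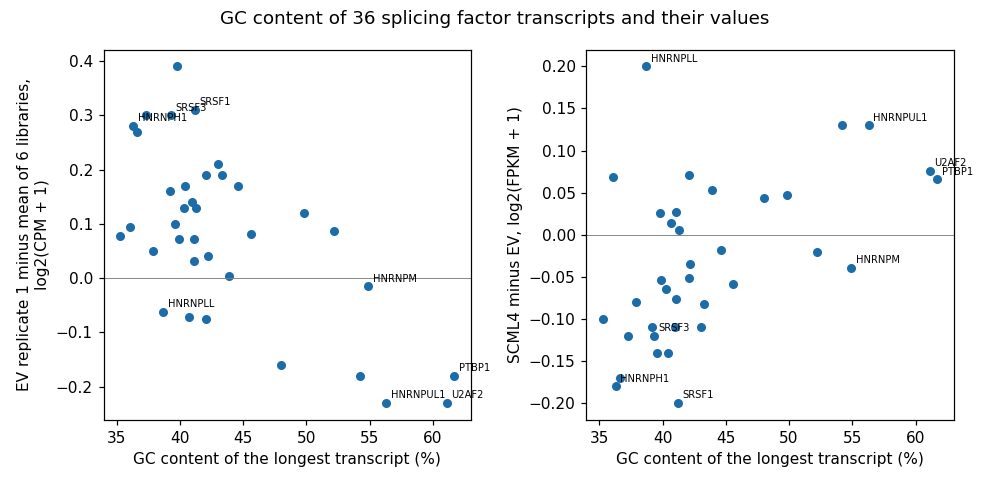
The GC content of the longest transcript is on both horizontal axes, in percent. The left panel shows the deviation of EV replicate 1, which falls with GC content (r = -0.67), and the right panel the difference SCML4 minus EV, which rises with it (r = 0.51), with HNRNPLL as a point of low GC content and positive difference.

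Signs followed that library in part. Without EV replicate 1, 26 of the 36 differences were smaller in size and 7 changed sign. In all, 22 members kept their sign in every alternative that was run, 16 of them negative, among which are SRSF1, SRSF5, SRSF6, HNRNPH1 and SF3B1. The shares of all genes that shrank, changed sign or kept their sign were not counted, so these counts are not read as particular to the members. The members with the largest negative values, SRSF1, HNRNPH1 and SRSF11, deviated by 0.31, 0.28 and 0.27 in EV replicate 1 alone.

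Reads on pseudogenes of the hnRNP genes formed a sizeable share. The 124 symbols left out held 1385, 2026 and 1836 CPM in EV and 1813, 1708 and 1965 CPM in SCML4 in sum. EV replicate 1, the highest for most of the genes, was the lowest here. HNRNPLP2, the largest pseudogene of HNRNPL, had 3832 to 4543 reads in EV and 4233 to 4601 in SCML4, and pseudogenes held 69.5% to 78.7% of the reads of HNRNPL and its pseudogenes.

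For HNRNPK, an hnRNP that binds C-rich RNA, pseudogenes held 46.5%, 59.8% and 57.4% in EV and 55.7%, 53.8% and 59.1% in SCML4. For HNRNPC they held 38.0%, 55.4% and 51.3% in EV and 51.9%, 50.4% and 59.1% in SCML4. In both, EV replicate 1 was the lowest of the 6 libraries. It was the lowest in 8 of the 10 genes with a mean of at least 100 pseudogene reads per library.

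Over all 6 libraries, the sum of a gene and its pseudogenes differed in direction from the gene alone in HNRNPC and HNRNPK. Values for the gene are on log2(FPKM + 1), and those for the sum are on log2(CPM + 1) of the recovered reads. For HNRNPC the difference was -0.11 for the gene and 0.046 for the sum, and for HNRNPK -0.035 and 0.0094. For HNRNPA3 it was -0.12 and -0.081, and for HNRNPA1 -0.11 and -0.065. EV replicate 1 had the lowest pseudogene share in each of these genes. The sums were not computed without it, so whether their direction rests on that library was not tested. How the authors assigned reads that fit several places is not given in the sources used here, so the levels of HNRNPC, HNRNPK, HNRNPL, HNRNPA3 and HNRNPA1 are uncertain to this extent. Of their 50-base stretches, 6.57% (HNRNPC), 11.9% (HNRNPK), 27.8% (HNRNPL), 16.5% (HNRNPA3) and 25.4% (HNRNPA1) occur in other genes too. The same was 45.2% in HNRNPUL2, whose stretches lie in the readthrough gene HNRNPUL2-BSCL2, and 0% in HNRNPLL, HNRNPF, HNRNPA2B1, PTBP1, TRA2A, TRA2B and U2AF2. Exons of other genes overlap 36.7% of the exonic bases of SRSF2 (MFSD11) and 46.2% of those of SRSF9 (GATC), and whether the counting used strand is not stated.

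**Figure D5:**
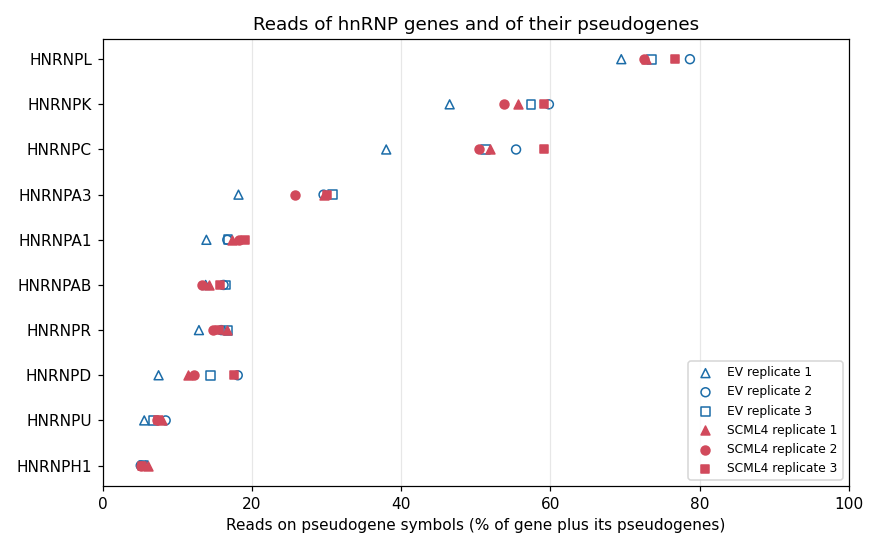
The share of reads on pseudogene symbols, in percent of the reads of a gene plus its pseudogenes, is shown for 10 hnRNP genes and 6 libraries. EV replicate 1, the open triangle, lies furthest left in 8 of the 10, among them HNRNPC (38.0%), HNRNPK (46.5%) and HNRNPA3 (18.2%).

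The other parts of the splicing pathway gave no called gene either, in 7 lists of fixed membership. Of 11 kinases and import factors of SR proteins, which phosphorylate the arginine and serine tail and carry the proteins to the nucleus, 10 were negative and 1 positive, with a median of -0.10. Leaving out EV replicate 1, 9 of the 11 were negative, with a median of -0.068. CLK2, which phosphorylates SR proteins in the nucleus, had 67.7, 69.6 and 73.7 CPM in EV and 63.1, 65.7 and 68.1 CPM in SCML4, a log2 difference of -0.10 (SE 0.061). PRPF4B and CLK4 were at -0.14 and -0.20 (-0.072 and -0.18 without EV replicate 1).

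Of 24 genes of the U1 and U2 particles and the Sm core, 14 were positive and 10 negative, with a median of 0.013. Leaving out EV replicate 1, 12 were positive and 12 negative, with a median of -0.0002. SF3B2, a partner of SF3B1 in the U2 particle, had 147, 165 and 164 CPM in EV and 191, 185 and 195 CPM in SCML4. All SCML4 libraries were higher, with a log2 difference of 0.26 (SE 0.074) in limma-trend, where the unadjusted p was 0.0109 and the adjusted 0.905. SF3B1 was at -0.11. SNRPG, a protein of the Sm ring, was at -0.32 (unadjusted p = 0.0350 in limma-trend) and SNRPB2 at -0.21 (-0.27 and -0.12 without EV replicate 1).

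Of 22 genes of the tri-snRNP and the catalytic core, 17 were positive, with a median of 0.054, and 14 were positive without EV replicate 1, with a median of 0.033. PRPF6, BUD31 and SLU7 had the smallest p there, at 0.21, 0.16 and 0.12 (0.12, 0.089 and 0.13 without it). In the minor spliceosome 5 of 7 tested genes were positive, with SNRNP35, SNRNP25 and SNRNP48 at 0.14, 0.10 and -0.092. They were 0.10, 0.024 and 0.018 without EV replicate 1, the last with its sign changed, and the median of the list went from 0.043 to 0.024. Among 31 other splicing regulators 23 were negative, with a median of -0.052, and 18 were negative without EV replicate 1, with a median of -0.024.

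MATR3, a nuclear matrix protein that binds pyrimidine tracts, led these regulators at -0.31 (unadjusted p = 0.0122, adjusted p = 0.905 in limma-trend), with RALY at 0.24 and SRRM1 at -0.13. The values of MATR3, RALY and SRRM1 were -0.24, 0.091 and -0.11 without EV replicate 1. MATR3 has 2 rows in the table, and the one with more reads was used. In nonsense-mediated decay and the exon junction complex, the route that removes many SR transcripts with poison exons, 9 of 16 genes were positive and the median was 0.020, or 0.0097 without EV replicate 1. UPF3B, MAGOHB and UPF1 were at -0.15, 0.11 and 0.12 (-0.20, 0.12 and 0.049 without it). Of 11 tested relatives of U2AF and SF3B outside the 41 genes, 9 were positive and 2 negative, and 5 and 6 without EV replicate 1. PUF60 and DHX15 were at 0.15 and -0.091 (0.082 and -0.074 without it). SF3B2, SF3B3, SF3B4, SF3B5, SF3B6 and DHX15 are also in the list of the U1 and U2 particles. ZRSR2 is also in that of the minor spliceosome, so the counts of these lists are not separate.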

How the data were processed

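RNA-seq was made from 6 Jurkat libraries, 3 EV and 3 SCML4, with groups and replicate numbers from the sample titles. Per the labels' protocols, RNA came from TRIzol extraction and libraries from a SMARTer kit. FastQC, STAR, SAMtools and the build hg19 are named, without versions, per the submitters' processing notes. Neither the counting tool nor the annotation is given in the sources used here, nor how reads with several matches were treated.

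All deposited values are FPKM per gene symbol, per the file headers. A value is a whole number of steps, each worth 1 read. The reads of all 23897 genes above 0 were recovered in this way as whole numbers within 0.002 of a read (100.0%). The gene lengths that FPKM imply do not follow GENCODE 29 lengths (Spearman rho -0.002 over 10938 genes that averaged 50 reads or more), so the pseudocount and the filter weigh differently by gene, and levels are given as CPM from the recovered reads. Count-based limma fits on these reads called between 1 and 12 genes in all.

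The comparison was SCML4 minus EV with limma-trend (limma 3.58.1, R 4.3.3) on log2(FPKM + 1), for the 15357 genes that averaged 0.5 FPKM or more, with Benjamini-Hochberg adjustment over all of them, two-sided, threshold 0.05. Differences are on that scale and understate those of low genes. Sums of a gene and its pseudogenes are on log2(CPM + 1), and fits of the reads are on their own scales. GC content was that of the longest GENCODE 29 transcript, and the correction was a lowess per library with span 0.3, on the 94.26% of genes with a value. Libraries were not paired by replicate number. Since 3 against 3 libraries cannot give an exact permutation p below 0.1, no such test is printed.

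Genes given with values were, in each family, the one with the highest CPM and the one with the smallest p, every member whose groups did not overlap, the 6 singly named genes and up to 3 genes per pathway list. The members and lists were chosen with earlier results of these data known. Pseudogenes and GC content were described after their values had been seen. Alternatives were other pseudocounts, filters, weights and scalings, a replicate block, fits of the reads and leaving out each library. The counts of non-overlapping groups without EV replicate 1 and after the GC correction were added after the data had been seen.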

Additional observations from a re-analysis of the deposited data

How the results depend on the processing

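In each alternative fit 0 members were called. The number of genes called in the whole table was 0 with the settings of the report, 7 with no filter, 4 with no intensity trend, 1 with library weights, 1 with limma-trend on reads, 1 with limma-voom, 12 with weighted limma-voom and 3 with the GC correction. The median of the L and PTB group was 0.13 with library weights and with weighted limma-voom, and that of the K, M, R and U group -0.053 with quantile normalization. With quantile normalization SRSF7 was at -0.015 and SRSF4 at -0.0043. With the GC correction U2AF2 was at -0.0061 and PTBP1 at -0.022. With library weights SRSF3 was at 0.0034, HNRNPUL2 at 0.026, HNRNPH2 at 0.028, HNRNPF at -0.0099 and HNRNPDL at 0.041. With weighted limma-voom SRSF4 was at -0.0035, HNRNPUL2 at 0.017, HNRNPH2 at 0.012, HNRNPF at -0.014 and HNRNPDL at 0.033. The cause of these changes was not tested.

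Leaving out each library in turn gave medians of -0.17 to -0.087 in the SR proteins with 2 motifs, 0.062 to 0.13 in the L and PTB group and -0.064 to -0.0081 in the K, M, R and U group. The median of all members ranged from -0.077 to -0.016. Medians that changed sign ranged from -0.057 to 0.029 in the SR proteins with 1 motif, -0.067 to 0.049 in the A/B and D group and -0.042 to 0.0096 at the 3 prime splice site. With library weights the first of these was 0.028 and the second 0.041, and with weighted limma-voom they were 0.021 and 0.033. Differences that changed sign ranged from -0.017 to 0.064 for HNRNPA0, -0.067 to 0.060 for HNRNPDL, -0.027 to 0.079 for HNRNPF, -0.15 to 0.032 for HNRNPH2, -0.063 to 0.012 for HNRNPK, -0.049 to 0.13 for HNRNPL and -0.074 to 0.010 for HNRNPM. They ranged from -0.076 to 0.019 for HNRNPUL2, -0.0093 to 0.13 for PTBP1, -0.079 to 0.13 for SRSF10, -0.018 to 0.030 for SRSF4, -0.030 to 0.067 for SRSF7 and -0.015 to 0.17 for U2AF2. The samples share only a replicate number: same-numbered libraries had correlations of -0.0187, -0.0469 and -0.00999. No library correlated best with its own number. With the replicate block 0 genes were called, 646 had an unadjusted p under 0.05 against 781 without the block, and the median of the members was -0.046. Depth limits SRSF10, SRSF12 and HNRNPCL1.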
